A study of Mus musculus with 33 samples.

Results

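Genes for 10 enzymes and enzyme subunits of mitochondrial propionate and branched-chain amino acid catabolism were followed in sorted blood stem and progenitor cells of old mice. They were *Pcca*, *Pccb*, *Mcee*, *Bckdha*, *Bckdhb*, *Dbt*, *Ivd*, *Mccc1*, *Mccc2* and *Bcat2*, which are 10 of the 55376 gene symbols counted in each library. *Pccb* was picked because its counts were higher in hematopoietic stem cells (HSCs) of nicotinamide riboside-treated mice than of untreated mice in one cohort, and the other 9 were taken because they act in the same routes. All values of the set from that contrast are therefore given as a description, without a test.

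Branched-chain amino acids (leucine, isoleucine and valine) are first transaminated, in mitochondria by *Bcat2*, and the resulting keto acids are then decarboxylated by the branched-chain keto acid dehydrogenase complex, whose E1 component is made of the *Bckdha* and *Bckdhb* subunits and whose E2 core is *Dbt*. Leucine carbon passes on through isovaleryl-CoA dehydrogenase (*Ivd*) and the biotin enzyme methylcrotonyl-CoA carboxylase (*Mccc1* and *Mccc2*). Isoleucine and valine carbon reaches propionyl-CoA, which the biotin enzyme propionyl-CoA carboxylase (*Pcca* and *Pccb*) and methylmalonyl-CoA epimerase (*Mcee*) prepare for entry into the citric acid cycle as succinyl-CoA.

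The cells came from the bone marrow of old C57BL/6 male mice aged 24 to 29 months, which were untreated (O-WT), given nicotinamide riboside (NR), a vitamin B3 form from which cells make NAD+, in drinking water for 4 to 6 weeks (O-NR), or given NR and then kept without it for 2 months (O-NR-RC). Cohort 2 held 24 total RNA libraries, from HSCs, from granulocyte-monocyte progenitors (GMPs) and from common lymphoid progenitors (CLPs), each with 4 O-WT and 4 O-NR libraries. Cohort 1 held 9 HSC libraries, of which 2 were O-WT, 4 were O-NR and 3 were O-NR-RC. One label field named the GMPs as common myeloid progenitors while their titles said GMP. The labels did not state that each library came from a separate mouse, so p-values measured the spread between these libraries only.

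The counted reads summed to 4792380 to 18213674 per library in cohort 2 and to 8897256 to 23816042 in cohort 1. Levels are given as CPM on the usual scale, with TMM factors included. The counts of a gene were divided by the counted reads of its library multiplied by its TMM scaling factor, computed within each cohort. Summed markers matched the sorts in cohort 2. The 4 HSC markers summed to 663 to 1210 CPM in HSCs and to at most 53.2 CPM in the other cells, the 4 CLP markers summed to 1450 to 4090 CPM in CLPs and to at most 38.8 CPM elsewhere, and the 4 GMP markers summed to 18000 to 23600 CPM in GMPs and to at most 515 CPM elsewhere. The 3 B and plasma cell markers summed to 18 to 451 CPM in O-WT HSCs and to 4.89 to 29.8 CPM in O-NR HSCs, and in GMPs to 40.5 to 64.8 and 32.1 to 121 CPM. The sums of the erythroid, neutrophil and T cell markers lay at or below 7.21, 9.87 and 11.1 CPM in HSCs of cohort 2, with none of these markers at 0 in every library of a group.

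All 10 genes were found in the Gencode annotation of the mm10 genome, each at 1 position and each protein coding. *Pccb* lies on chr9:100982032-101034898 on the minus strand and its partner *Pcca* on chr14:122534324-122891100 on the plus strand. *Mccc1* lies on chr3:35959312-36000678 and *Mccc2* on chr13:99948530-100015639, both on the minus strand. *Bckdha* (chr7:25629946-25658981, minus strand) shares 1171 of its 1899 exonic bases, or 61.7%, with *B3gnt8* on the opposite strand. The strand setting of the counting was not stated, so reads of *Bckdha* and *B3gnt8* may not be told apart, and *Bckdha* values are uncertain. The shared part was 15.9% for *Bcat2*, 4.63% for *Pcca* and at most 2.93% with any single gene for *Mccc1*. No shared exonic bases were found for the other 6 genes.

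Promoter windows (250 bases before to 50 bases after the start, RefSeq, GRCm38.p6) were on hand for 9 of the 10 genes, and a window for *Dbt* was not used here. Those of *Pccb* (chr9:101034835-101035134, minus strand) and *Mccc1* (chr3:36000629-36000928, minus strand) are shown because *Mccc1* was the member whose 3 calls between cell types matched those of *Pccb*. Each is written from 5′ to 3′ on the strand of its gene, and capitals mark the motifs searched for. In *Pccb* they mark the NRF1 motif GCGCATGCG and in *Mccc1* the CCAAT box, as CCAAT or, read on the other strand, ATTGG.
Pccb: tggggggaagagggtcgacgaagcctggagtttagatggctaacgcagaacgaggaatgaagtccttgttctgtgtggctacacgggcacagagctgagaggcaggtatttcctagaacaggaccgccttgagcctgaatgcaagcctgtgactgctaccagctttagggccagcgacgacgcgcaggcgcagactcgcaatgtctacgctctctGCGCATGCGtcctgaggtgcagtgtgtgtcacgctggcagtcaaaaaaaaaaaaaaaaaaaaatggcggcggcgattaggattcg
Mccc1: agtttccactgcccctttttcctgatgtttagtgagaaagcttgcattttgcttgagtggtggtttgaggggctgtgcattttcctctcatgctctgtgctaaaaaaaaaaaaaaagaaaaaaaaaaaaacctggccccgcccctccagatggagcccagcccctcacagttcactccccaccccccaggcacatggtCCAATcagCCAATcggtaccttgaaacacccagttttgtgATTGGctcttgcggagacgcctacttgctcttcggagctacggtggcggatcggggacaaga
The NRF1 motif was found in 1.75% of 32851 promoter windows, and in the window of *Pccb* only among the 9. The CCAAT box was in 37.4% of all windows and in 6 of the 9, namely *Bckdhb*, *Ivd*, *Mccc1*, *Mccc2*, *Pcca* and *Mcee*. *Mccc2* also held the E-box CACGTG, found in 7.15% of all windows, while none of the 9 held the ETS motif CCGGAAG (8.86% of all) or the CRE motif TGACGTCA (1.79% of all). Both strands were searched. *Bcat2*, *Bckdhb* and *Pcca* had 2 windows each, and the motifs given here are those of a single window per gene. The *Pccb* window held 20 CpG pairs at 54.3% GC, and the *Mccc1* window 8 CpG pairs at 50.7% GC, against medians of 7 CpG pairs and 52.7% GC over all windows. These matches describe the letters of the windows and no binding was measured.

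Which cells carried most of these transcripts was examined first, over the 24 libraries of cohort 2 with O-WT and O-NR averaged. The HSC side of it holds the libraries from which *Pccb* was picked for being higher in O-NR than in O-WT. Values of *Pccb* and of its ratio to *Pcca* are given from O-WT libraries alone as well. They are no independent check, since the pick may hold O-WT HSCs low as it may hold O-NR HSCs high. GMPs had the highest mean CPM for 8 of the 10 members, HSCs for *Mccc1* and *Bckdhb*, and CLPs had the lowest mean for 8, all but *Dbt* and *Ivd*. Libraries were scaled by edgeR's TMM method and compared with its quasi-likelihood test, and a gene was called at a Benjamini-Hochberg adjusted p below 0.05 over the 22573 genes tested. By this rule 44.1% of all genes were called in HSCs against CLPs, 48.1% in HSCs against GMPs and 69.9% in CLPs against GMPs. In bulk samples, fewer cells of one kind and less RNA per cell cannot be told apart.

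**Figure D1:**
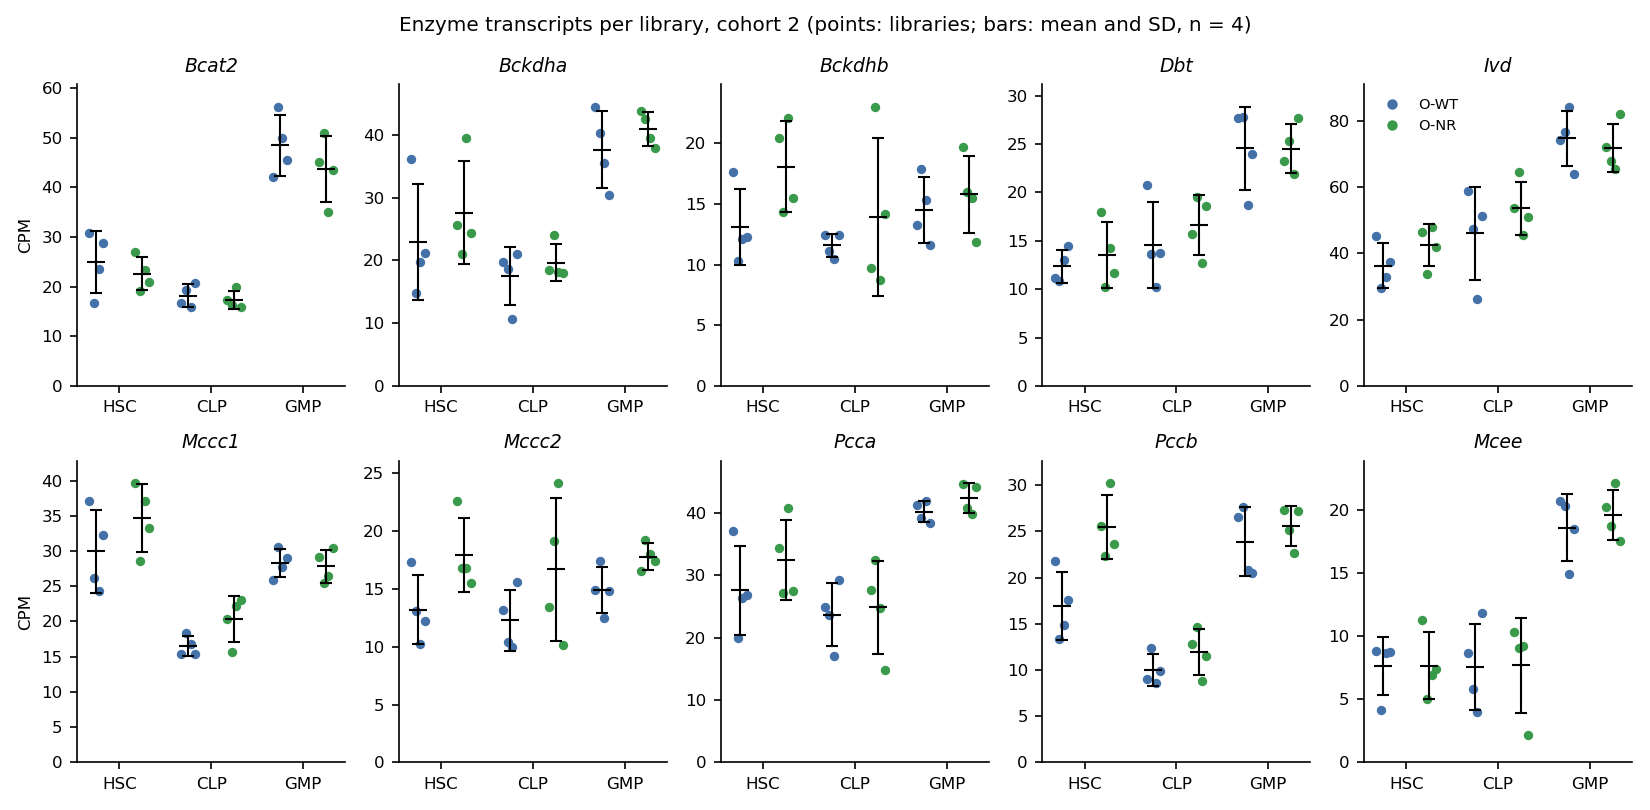
CPM (vertical axes, from 0) of each of the 10 members in the 24 libraries of cohort 2, by cell type and treatment (blue O-WT, green O-NR); points are libraries and bars the mean and SD of 4. GMP points lie above CLP points without overlap for 6 members, *Pccb*, *Pcca*, *Mcee*, *Bckdha*, *Mccc1* and *Bcat2*, which was so for 21.5% of all genes.

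Of the propionyl-CoA carboxylase subunits, *Pccb*, the beta subunit with the carboxyltransferase site, ranged from 13.4 to 30.2 CPM in HSCs (median 22), from 8.6 to 14.7 CPM in CLPs (median 10.7) and from 20.5 to 27.6 CPM in GMPs (median 25.9). CLP levels stayed below every GMP level, and HSC levels overlapped both. The log2 fold change was 0.92 ± 0.15 (SE) in HSCs against CLPs (edgeR quasi-likelihood test, adjusted p = 3.86e-07) and −1.17 ± 0.15 in CLPs against GMPs (adjusted p = 1.14e-09). In O-WT libraries alone the first was 0.76 ± 0.21 (edgeR, adjusted p = 0.00356), which is no independent check because the pick used these HSC libraries too. HSCs and GMPs differed by −0.25 ± 0.14 (adjusted p = 0.131). That value was called lower in HSCs when libraries were scaled by RLE (−0.45, adjusted p = 0.0114) and with DESeq2 (−0.45, adjusted p = 0.00612). It was also called in 15 of the 24 fits that left out 1 library, by −0.392 to −0.305, with libraries of every group among the 15. In O-WT libraries alone it was −0.50 (edgeR, adjusted p = 0.042), but nothing is read from that call because the pick used these HSC libraries. The order of HSCs and GMPs was therefore not settled.

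*Pcca*, the alpha subunit that carries biotin, ranged from 20 to 40.8 CPM in HSCs (median 27.4), from 14.8 to 32.5 CPM in CLPs (median 24.8) and from 38.4 to 44.7 CPM in GMPs (median 41). It was lower in HSCs than in GMPs by a log2 fold change of −0.46 ± 0.15 (SE) (edgeR quasi-likelihood test, adjusted p = 0.0066) and lower in CLPs than in GMPs by −0.76 ± 0.15 (adjusted p = 1.93e-05). The difference of 0.30 ± 0.15 between HSCs and CLPs was not called (adjusted p = 0.0946), although it was in 11 of the 24 fits without 1 library, 1 of them without an HSC, 4 without a CLP and 6 without a GMP library. The difference from GMPs was not called in O-NR libraries alone (−0.38, adjusted p = 0.161). *Mcee*, the epimerase of the next step, gave a median of 8.05 CPM in HSCs (4.19 to 11.3), 8.85 CPM in CLPs (2.15 to 11.8) and 19.4 CPM in GMPs (14.9 to 22.1). Its levels in GMPs lay above every HSC and CLP library. It differed by a log2 fold change of −1.32 ± 0.21 both in HSCs against GMPs (adjusted p = 1.65e-07) and in CLPs against GMPs (adjusted p = 3.5e-07), and in HSCs against CLPs it was −0.0021 ± 0.21 (adjusted p = 0.994), with a positive sign in 3 alternatives.

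Of the methylcrotonyl-CoA carboxylase subunits, *Mccc1*, the biotin-carrying alpha subunit, ranged from 24.3 to 39.6 CPM in HSCs (median 32.8), from 15.4 to 23 CPM in CLPs (median 17.6) and from 25.4 to 30.5 CPM in GMPs (median 28.4). All HSC and all GMP libraries lay above all CLP libraries. The log2 fold change was 0.82 ± 0.13 (SE) in HSCs against CLPs (edgeR quasi-likelihood test, adjusted p = 8.6e-07) and −0.62 ± 0.13 in CLPs against GMPs (adjusted p = 0.000106), while HSCs and GMPs differed by 0.20 ± 0.13 (adjusted p = 0.205). *Mccc2*, the beta subunit, gave medians of 16.1 CPM in HSCs (10.2 to 22.6), 13.3 CPM in CLPs (9.97 to 24.1) and 16.9 CPM in GMPs (12.5 to 19.2). Its 3 ranges overlapped, and the log2 fold changes of 0.10 ± 0.16, −0.08 ± 0.16 and −0.18 ± 0.16 were not called (adjusted p = 0.62, 0.667 and 0.293 in HSCs against CLPs, HSCs against GMPs and CLPs against GMPs). The last of these was called under RLE scaling (−0.37) and without CLP O-WT replicate 4 (−0.34) or O-NR replicate 3 (−0.40). *Ivd*, the dehydrogenase one step earlier in leucine breakdown, ranged from 29.6 to 47.9 CPM in HSCs (median 39.6), from 26.4 to 64.6 CPM in CLPs (median 51.2) and from 64.1 to 84.3 CPM in GMPs (median 73.3). Every GMP library lay above every HSC library, with log2 fold changes of −0.90 ± 0.14 in HSCs against GMPs (adjusted p = 3.05e-07) and −0.56 ± 0.14 in CLPs against GMPs (adjusted p = 0.000753). *Ivd* was the 1 member called lower in HSCs than in CLPs (−0.34 ± 0.14, adjusted p = 0.0471), a call that was lost without O-WT replicate 3 or 4 or O-NR replicate 1 or 4 of HSCs, or without O-WT replicate 1 or 2 or O-NR replicate 2 of CLPs (adjusted p up to 0.116). It was also lost under RLE scaling (adjusted p = 0.0637), with a filter above 1 CPM (−0.19, adjusted p = 0.457) or no filter (−0.31, adjusted p = 0.208), with the replicate block (adjusted p = 0.0644) and in O-WT or O-NR libraries alone (adjusted p = 0.21 and 0.212), and DESeq2 called it.

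At the entry of the route, *Bcat2*, the mitochondrial aminotransferase, ranged from 16.7 to 30.7 CPM in HSCs (median 23.5), from 15.8 to 20.8 CPM in CLPs (median 17) and from 35.1 to 56.2 CPM in GMPs (median 45.3). GMP levels lay above all others. The fitted log2 fold change was −0.95 ± 0.14 (SE) in HSCs against GMPs (edgeR quasi-likelihood test, adjusted p = 2.99e-08), −1.37 ± 0.14 in CLPs against GMPs (adjusted p = 3e-12) and 0.42 ± 0.14 in HSCs against CLPs (adjusted p = 0.0119). *Dbt*, the E2 core of the dehydrogenase complex, gave medians of 12.4 CPM in HSCs (10.2 to 18), 14.7 CPM in CLPs (10.2 to 20.8) and 24.6 CPM in GMPs (18.7 to 27.8). It was lower than in GMPs by −0.92 ± 0.15 in HSCs (adjusted p = 5.86e-07), whose libraries did not overlap those of GMPs, and by −0.66 ± 0.15 in CLPs (adjusted p = 0.000232), and HSCs and CLPs differed by −0.27 ± 0.15 (adjusted p = 0.148).

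*Bckdha*, the E1 alpha subunit, ranged from 14.8 to 39.6 CPM in HSCs (median 22.8), from 10.7 to 24 CPM in CLPs (median 18.6) and from 30.4 to 44.5 CPM in GMPs (median 39.9). It was higher in HSCs than in CLPs by 0.44 ± 0.16 (log2 fold change, SE, edgeR quasi-likelihood test, adjusted p = 0.0217), lower in HSCs than in GMPs by −0.64 ± 0.16 (adjusted p = 0.000439) and lower in CLPs than in GMPs by −1.08 ± 0.16 (adjusted p = 8.73e-08). The first of these calls was lost without HSC O-WT replicate 1 (adjusted p = 0.127), HSC O-NR replicate 3 (0.0974) or CLP O-WT replicate 3 (0.0641), and the shared bases with *B3gnt8* apply to all. *Bckdhb*, the E1 beta subunit, gave medians of 14.9 CPM in HSCs (10.3 to 22.1), 11.7 CPM in CLPs (8.69 to 23) and 15.4 CPM in GMPs (11.6 to 19.7). Its ranges overlapped and none of its 3 log2 fold changes was called, with 0.27 ± 0.17 in HSCs against CLPs (adjusted p = 0.182), 0.02 ± 0.17 in HSCs against GMPs (adjusted p = 0.928) and −0.25 ± 0.17 in CLPs against GMPs (adjusted p = 0.171). The first was called without CLP O-NR replicate 2 (0.45, adjusted p = 0.0114), the second had a negative sign under RLE scaling (−0.18), and the third was called under RLE scaling (−0.45), with DESeq2 (−0.45), with a filter above 1 CPM (−0.43) or no filter (−0.47) and in 6 of the 24 fits without 1 library (−0.52 to −0.36).

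In HSCs against CLPs, 4 of the 10 members were higher (*Pccb*, *Mccc1*, *Bckdha* and *Bcat2*) and 1 was lower (*Ivd*). The members' median log2 fold change was 0.28 beside −0.13 over all genes tested. In HSCs against GMPs, none was higher and 6 were lower, and the medians were −0.55 and 0.28. In CLPs against GMPs, none was higher and 8 were lower, and the medians were −0.71 and 0.41. Counted by direction, 26.8% of all genes were called lower and 43.1% higher in CLPs than in GMPs, 21% lower and 27.1% higher in HSCs than in GMPs, and 20.2% lower and 23.9% higher in HSCs than in CLPs. Scaling by RLE shifted the all-gene median by −0.18 in HSCs against GMPs and by −0.17 in CLPs against GMPs, and each of the 10 members lay below the all-gene median in both comparisons under TMM, RLE and DESeq2. Under RLE the share of higher calls among all calls fell from 56.3% to 42.4% in HSCs against GMPs and from 61.7% to 51.5% in CLPs against GMPs. With O-WT libraries alone, *Pccb* and *Mccc1* were the 2 members called in HSCs against CLPs, beside 5877 of all 22573 genes. With O-NR libraries alone the same 2 were called, beside 6821 of all genes, but *Pccb* was picked for being high in those HSC libraries. Members whose libraries did not overlap numbered 1 of 10 in HSCs against CLPs (13.8% of all genes), 4 of 10 in HSCs against GMPs (26.9%) and 6 of 10 in CLPs against GMPs (21.5%).

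**Figure D2:**
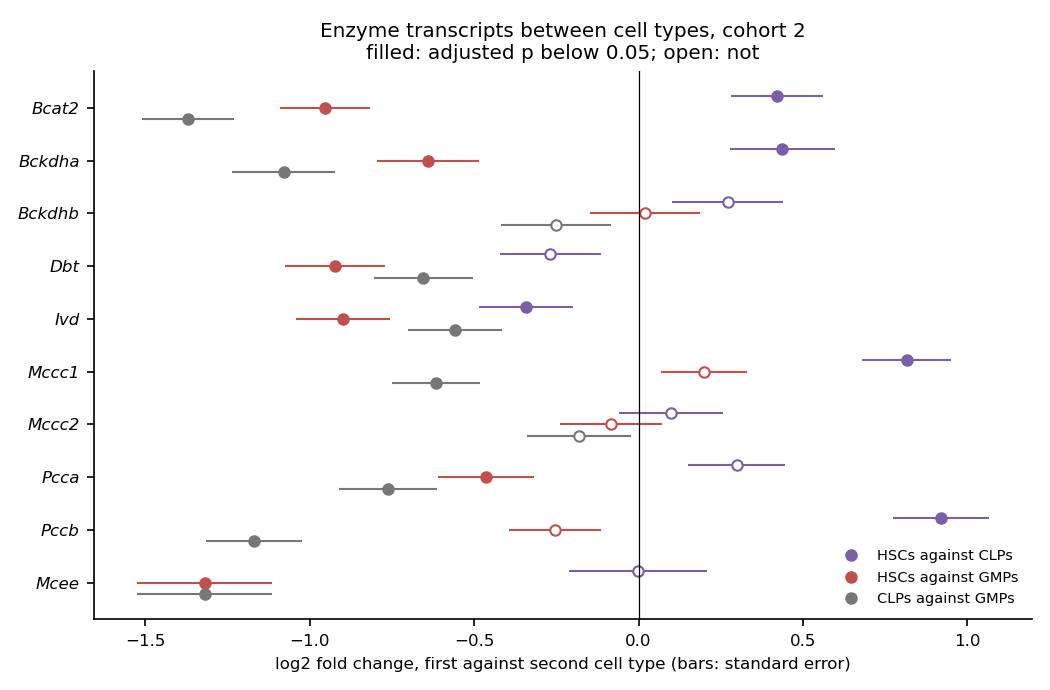
Log2 fold change (horizontal axis) of each member between cell types of cohort 2, with bars for the standard error; filled points have an adjusted p below 0.05. All 10 points of CLPs against GMPs (grey) lie below 0, from −1.37 for *Bcat2* to −0.18 for *Mccc2*, whereas HSCs against CLPs (purple) reach from −0.34 for *Ivd* to 0.92 for *Pccb*.

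Levels of different genes were set side by side only after division by the merged exonic length of all annotated isoforms. Per kilobase, mean CPM in HSCs of cohort 2 ran from 2.95 for *Mccc1* over 3.87 for *Dbt*, 5.55 for *Mccc2*, 5.76 for *Pcca*, 6.1 for *Bcat2*, 7.16 for *Ivd*, 7.64 for *Pccb*, 8 for *Mcee* and 8.63 for *Bckdhb* to 13.3 for *Bckdha*. In GMPs the highest were *Bckdha* at 20.7 and *Mcee* at 20 CPM per kilobase and the lowest *Mccc1* at 2.56. *Mccc1* has 10952 merged exonic bases, the longest of the 10, and a transcript that uses only part of them is understated by this scale.

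The balance between the subunits of one enzyme was then compared within each library, which needs no scaling between libraries. The log2 ratio of *Pccb* to *Pcca* counts had a median of −0.50 in HSCs (−0.83 to −0.22), −1.12 in CLPs (−1.56 to −0.37) and −0.70 in GMPs (−1.01 to −0.51). The mean ratio was 1.52 times higher in HSCs than in CLPs (log2 difference 0.61, exact permutation test over 8 against 8 libraries, two-sided p = 0.0028, adjusted over 9 comparisons 0.00839), and in O-WT libraries alone the log2 difference was 0.54 (exact permutation test, adjusted p = 0.0643). It was 1.17 times higher in HSCs than in GMPs (log2 difference 0.23, exact permutation p = 0.0294, adjusted 0.0378), but O-WT libraries alone differed by 0.07 and O-NR libraries alone by 0.39. *Pccb* was picked for being high in those O-NR HSC libraries, so no difference between HSCs and GMPs is read from this p. Of the 24 fits without 1 library, 9 exceeded an adjusted 0.05, up to 0.0755. The log2 difference of −0.38 between CLPs and GMPs (exact permutation p = 0.0256, adjusted 0.0378) likewise exceeded an adjusted 0.05 in 8 of 24 such fits and was −0.47 in O-WT libraries alone.

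For *Mccc2* to *Mccc1* the median log2 ratio was −1.10 in HSCs (−1.40 to −0.77), −0.41 in CLPs (−1.18 to 0.28) and −0.81 in GMPs (−1.15 to −0.40). The CLP libraries were spread most. These are ratios of counts, and per kilobase of merged exons the log2 ratio was above 0 in every library, at 0.564 to 1.20 in HSCs of cohort 2. HSCs were lower than CLPs by −0.68 (exact permutation p = 0.00513, adjusted 0.0115) and lower than GMPs by −0.28 (exact permutation p = 0.026, adjusted 0.0378, over 0.05 in 9 of 24 fits without 1 library), and CLPs and GMPs differed by 0.39 (exact permutation p = 0.072, adjusted 0.0809). For *Bckdhb* to *Bckdha* the log2 ratio lay between −1.74 and −1.15 in GMPs, between −1.04 and −0.33 in HSCs and between −1.06 and −0.03 in CLPs. The GMP libraries lay below all others, by 0.71 against HSCs and by 0.81 against CLPs, both with an exact permutation p = 0.000155 (adjusted 0.000699), the smallest this test allows. HSCs and CLPs differed by −0.10 (exact permutation p = 0.517). The *B3gnt8* counts that share exons with *Bckdha* were 0.461 to 0.978 times those of *Bckdha* in HSCs and 0.397 to 0.648 times in GMPs of cohort 2, and their part in the ratio was not tested.

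**Figure D3:**
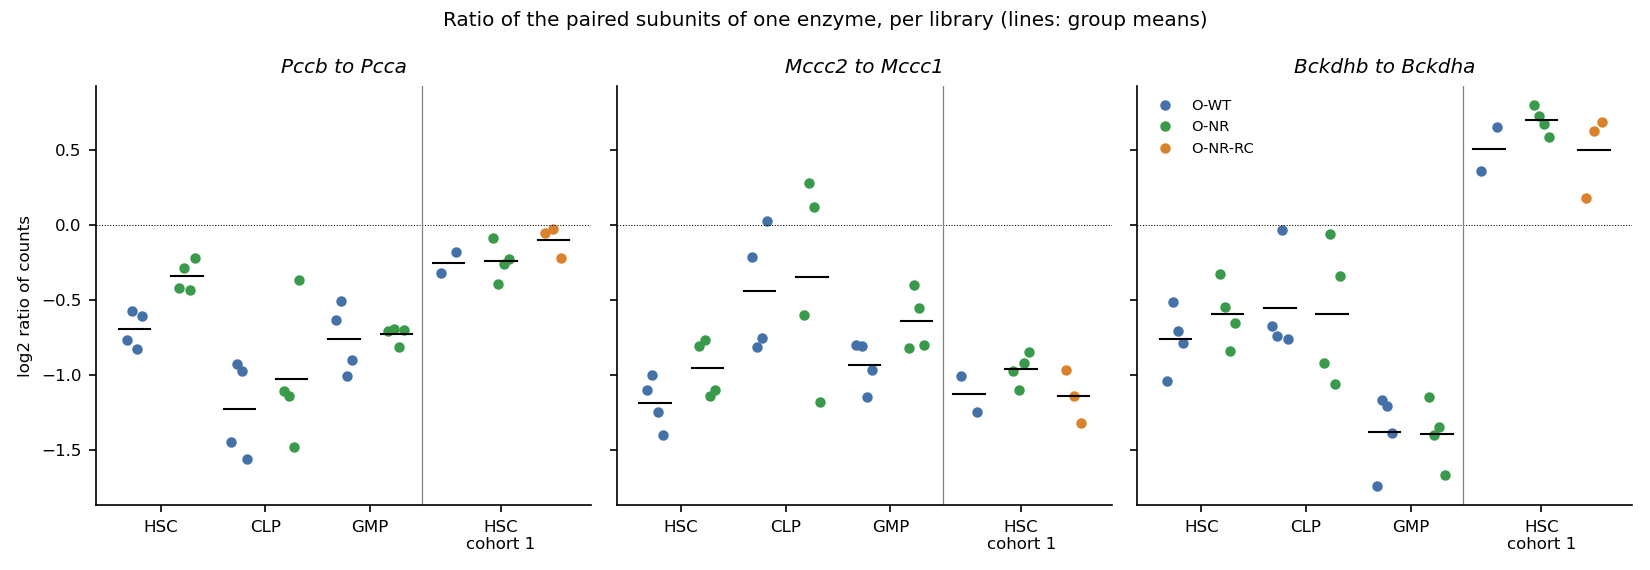
Log2 ratio of counts (vertical axis) of the paired subunits in each of the 33 libraries, by cell type and cohort (blue O-WT, green O-NR, orange O-NR-RC), with lines for group means; the vertical line parts cohort 2 from cohort 1. GMPs lie lowest for *Bckdhb* to *Bckdha*, from −1.74 to −1.15, and HSCs of cohort 1 lie above 0, from 0.18 to 0.80.

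What NR did in HSCs of cohort 2 is the contrast that picked *Pccb*. *Pccb* gave 21.8, 13.4, 14.9 and 17.6 CPM in O-WT and 25.6, 22.3, 30.2 and 23.6 CPM in O-NR libraries. Every O-NR library lay above every O-WT library, with a gap of less than 1 CPM between the highest O-WT and the lowest O-NR library. The log2 fold change was 0.52 ± 0.12 (SE), a 1.43-fold difference. The partner *Pcca* gave 37.1, 20, 26.4 and 26.8 CPM in O-WT and 34.4, 27.2, 40.8 and 27.5 CPM in O-NR libraries. These overlapped, at 0.17 ± 0.12. In the same libraries the log2 ratio of *Pccb* to *Pcca* lay between −0.83 and −0.57 in O-WT and between −0.43 and −0.22 in O-NR. The CPM of these libraries were divided by their TMM factors, which the ratio does not use. The factors were 0.843, 1.39, 1.21 and 0.984 in O-WT and 0.927, 1.27, 0.819 and 1.01 in O-NR libraries. At an equal share of counted reads, a lower factor gives a higher CPM. The part of the factors in the gap and in the overlaps was not tested.

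The other members overlapped between O-WT and O-NR HSCs. *Bckdhb*, at 17.6, 10.3, 12.1 and 12.3 CPM in O-WT and 20.4, 14.3, 22.1 and 15.5 CPM in O-NR libraries, had the next largest log2 fold change, 0.39 ± 0.15 (SE). *Mccc2*, at 17.3, 13.1, 10.2 and 12.2 CPM in O-WT and 22.6, 16.8, 16.8 and 15.5 CPM in O-NR libraries, followed at 0.37 ± 0.17. Both overlapped through O-WT replicate 1 alone, the highest O-WT library for *Pccb*, *Pcca*, *Bckdha* and *Ivd* as well. That library had the lowest TMM factor of the O-WT HSCs of cohort 2, 0.843, and the part of the factor in the overlap was not tested. Of the rest, 4 had positive log2 fold changes between 0.13 for *Mccc1* and 0.21 for *Bckdha*, *Dbt* was at 0.02 ± 0.19, *Mcee* at −0.07 ± 0.27 and *Bcat2* at −0.20 ± 0.13. In all, 8 of 10 were positive and the median was 0.16, beside −0.01 over the 17364 genes tested. Over all genes tested, 135 or 0.777% had an unadjusted p below 0.01 and 705 or 4.06% one below 0.05 with edgeR, groups did not overlap for 2.65%, and after adjustment edgeR called 0 and DESeq2 4. Nothing is read from these shares about the members. B and plasma cell markers summed to 99.4, 18, 104 and 451 CPM in the O-WT and to 29.8, 4.89, 14.9 and 5.83 CPM in the O-NR HSC libraries. Most of this was *Ighm*, with means of 153 CPM in O-WT and 5.46 in O-NR. *Jchain* averaged 14.2 and 7.13 CPM, and *Cd79a* did not follow, at 1.11 and 1.26. The part of these markers in the differences was not tested.

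**Figure D4:**
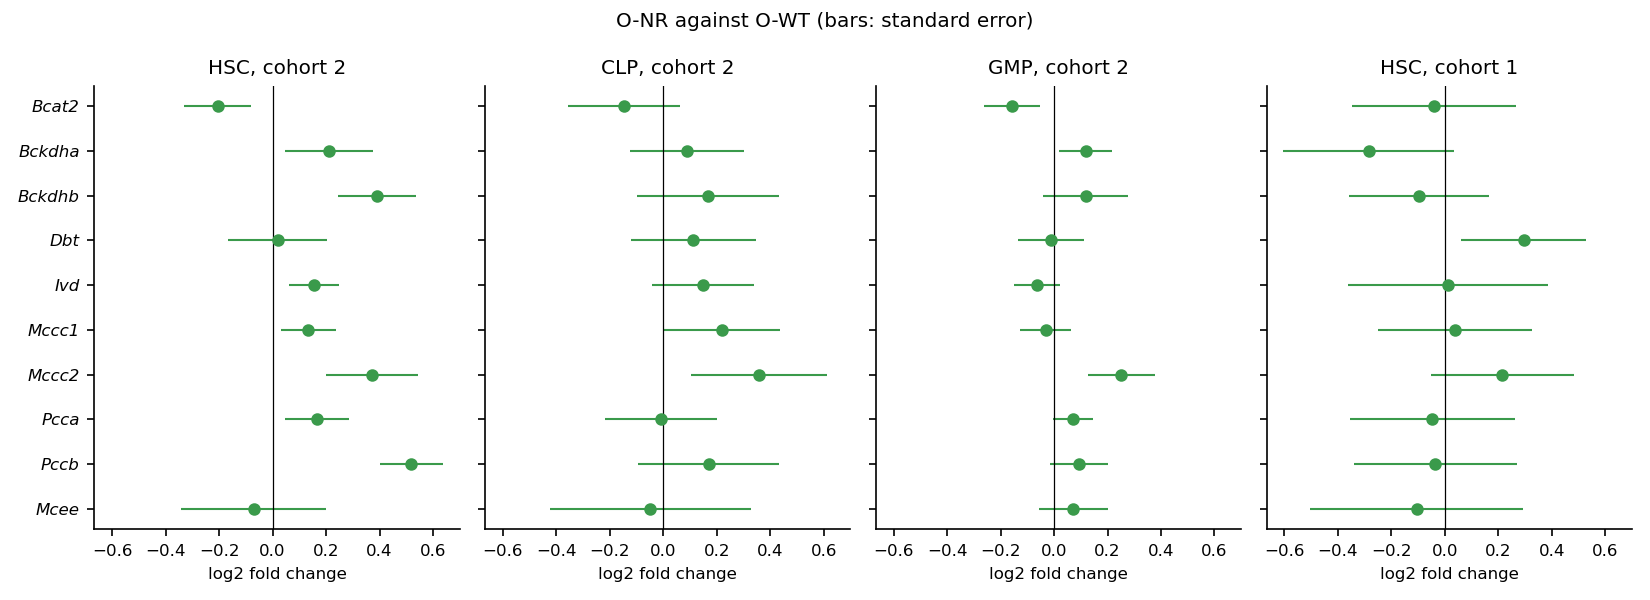
Log2 fold change of O-NR against O-WT (horizontal axes) for the 10 members in HSCs, CLPs and GMPs of cohort 2 and in HSCs of cohort 1, with bars for the standard error. *Pccb* lies at 0.52 in HSCs of cohort 2, the contrast it was picked from, and at 0.17, 0.09 and −0.04 in the other 3.

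In CLPs of cohort 2 *Pccb* gave 9.08, 12.4, 8.6 and 9.92 CPM in O-WT and 12.8, 14.7, 8.81 and 11.5 CPM in O-NR libraries. The groups overlapped, and the log2 fold change was 0.17 ± 0.26 (SE, edgeR quasi-likelihood test, unadjusted p = 0.526). In GMPs *Pccb* gave 26.6, 27.6, 20.8 and 20.5 CPM in O-WT and 27.3, 25.1, 22.7 and 27.2 CPM in O-NR libraries, again overlapping, at 0.09 ± 0.11 (edgeR, unadjusted p = 0.405). The effects in CLPs and GMPs differed by 0.17 ± 0.29 (interaction in edgeR, unadjusted p = 0.568, a limit of 0.01 being passed by 0.403% of 22573 genes and by no member), and the difference from HSCs was not tested because HSCs picked the gene.

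No member was called in either progenitor at an unadjusted p below 0.01 with edgeR, where 0.412% of 19909 genes passed in CLPs and 0.986% of 13486 in GMPs, nor at an unadjusted p below 0.05, nor with DESeq2 at either limit. After adjustment edgeR called 0 of all genes in both, with 640 (3.21%) and 651 (4.83%) at an unadjusted p below 0.05, and DESeq2 called 0 and 8. Groups of members overlapped in every case, where 2.54% and 3.03% of all genes did not. *Mccc2* came nearest in GMPs, with 14.9, 17.4, 12.5 and 14.8 CPM in O-WT and 16.5, 19.2, 18 and 17.4 CPM in O-NR libraries. Only O-WT replicate 2 reached into the O-NR range, and the log2 fold change was 0.25 ± 0.13 (SE, edgeR, unadjusted p = 0.0636, adjusted p = 0.997). In CLPs *Mccc2* gave 13.2, 10.4, 9.97 and 15.6 CPM in O-WT and 13.4, 19.1, 24.1 and 10.1 CPM in O-NR libraries, at 0.36 ± 0.25 (edgeR, unadjusted p = 0.166). The range of the O-NR libraries took in 3 of the 4 O-WT libraries. *Bcat2* was negative in all 3 cell types, at −0.15 ± 0.21 in CLPs (edgeR, unadjusted p = 0.491) and −0.16 ± 0.10 in GMPs (edgeR, unadjusted p = 0.154). Over the 10 members, 7 were positive in CLPs with a median of 0.13 and 6 in GMPs with a median of 0.07, beside medians of −0.0048 and −0.0018 over all genes.

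In cohort 1, the effect of NR and of its withdrawal was measured in HSC libraries that had no part in picking *Pccb*. *Pccb* gave 29.1 and 29.3 CPM in O-WT, 24.1, 21.4, 31.4 and 37.1 CPM in O-NR and 36.2, 23.3 and 23.4 CPM in O-NR-RC libraries. The O-NR libraries lay on both sides of O-WT, as did the O-NR-RC libraries. On the log2 scale the difference was −0.04 ± 0.31 (SE) for O-NR against O-WT (edgeR quasi-likelihood test, unadjusted p = 0.91), −0.04 ± 0.27 for O-NR-RC against O-NR (unadjusted p = 0.876) and −0.08 ± 0.32 for O-NR-RC against O-WT (unadjusted p = 0.812). The sign changed when single libraries were left out, over −0.19 to 0.08, −0.29 to 0.11 and −0.32 to 0.03. With these standard errors a difference of the size seen in cohort 2 was not detectable, and the effects of the cohorts were not compared by a test.

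The libraries of cohort 1 fell into 2 sets by their TMM factor, 5 below 1 (0.671 to 0.969) and 4 above 1 (1.23 to 1.32). The first set held both O-WT libraries, O-NR replicates 3 and 4 and O-NR-RC replicate 1, and the second the remaining O-NR and O-NR-RC libraries, so no O-WT library had a factor above 1. For 7 of the 10 members, *Pccb*, *Pcca*, *Mcee*, *Bckdha*, *Bckdhb*, *Ivd* and *Bcat2*, the CPM of the 5 and of the 4 libraries did not overlap, and the first set was higher. *Pccb* lay at 29.1 to 37.1 CPM in the first and at 21.4 to 24.1 CPM in the second, and *Ivd* at 43.1 to 61 and 30.6 to 33 CPM. These CPM were divided by the same factors that made the sets. At an equal share of counted reads, a lower factor gives a higher CPM, so the separation is not independent of the split and nothing is read from it. Within the 5 libraries the log2 fold change of O-NR against O-WT, from 2 libraries each, was 0.19 ± 0.14 (SE) for *Pccb*, 0.30 ± 0.17 for *Dbt* and 0.36 ± 0.16 for *Mccc2*. This split was chosen after seeing the data, and 491 genes had an unadjusted p below 0.01 in that fit (edgeR) in place of 16. B and plasma cell markers summed to at most 16.3 CPM in the O-WT and O-NR libraries and to 91, 18.2 and 139 CPM in the O-NR-RC libraries. *Ighm* averaged 74 CPM in O-NR-RC and 5.61 in O-NR, while *Jchain* averaged 4.98 and 4.9 and *Cd79a* 3.78 and 3.34. Neutrophil markers summed to 25.9 to 37.7 CPM in O-WT, 23 to 30.5 CPM in O-NR and 42.6 to 68.1 CPM in O-NR-RC libraries. The part of either list in the O-NR-RC comparisons was not tested. The cause of the split was not tested.

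**Figure D5:**
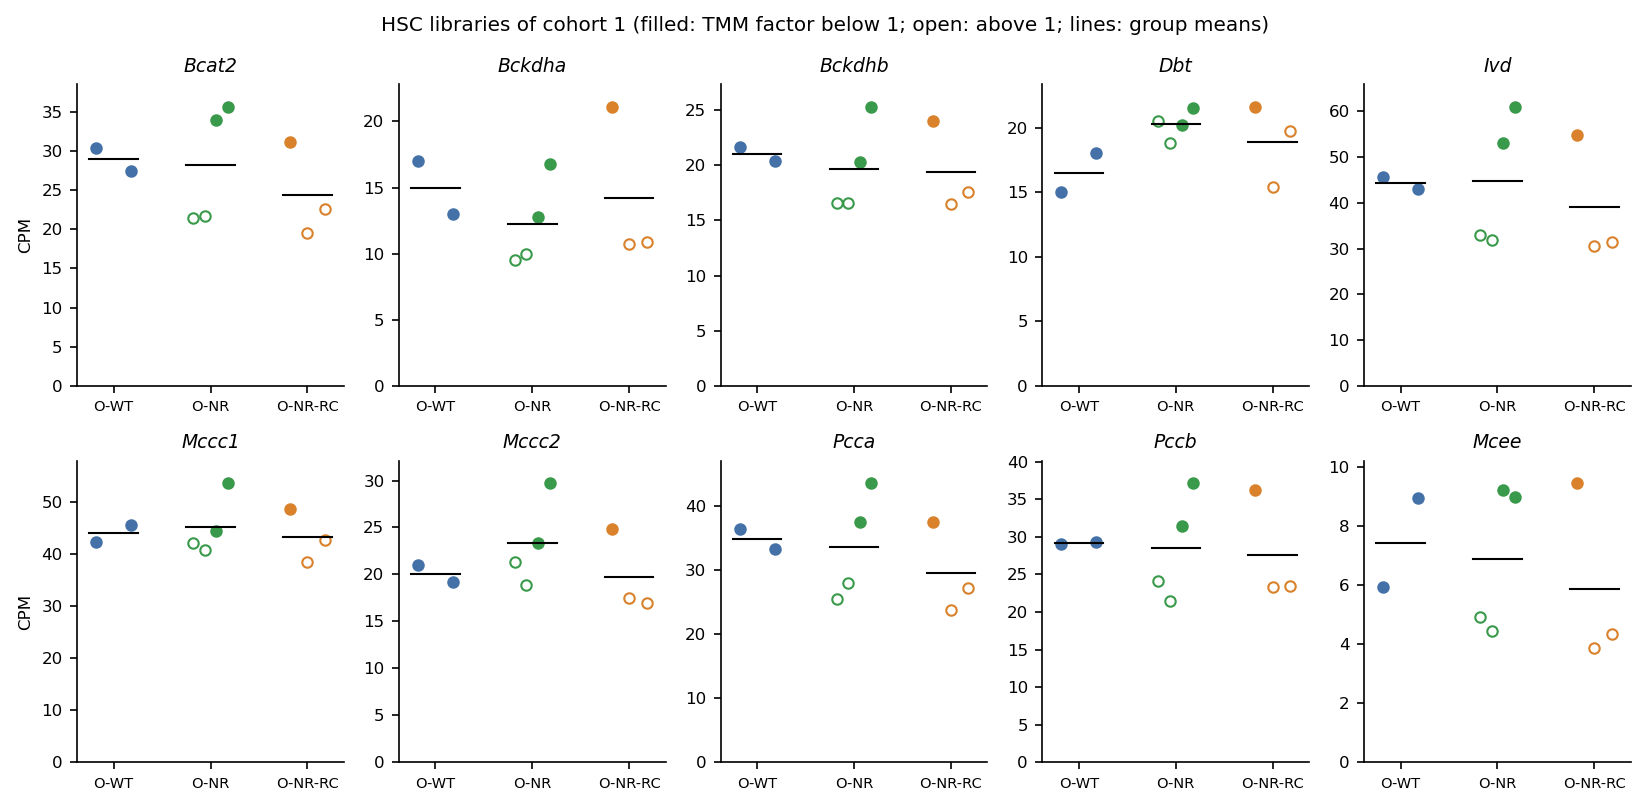
CPM (vertical axes, from 0) of the 10 members in the 9 HSC libraries of cohort 1 by treatment; filled points have a TMM factor below 1, open points above 1, and lines are group means. For *Pccb* the filled points lie between 29.1 and 37.1 CPM and the open points between 21.4 and 24.1 CPM, in O-NR and O-NR-RC alike. The CPM were divided by these factors, so the distance between filled and open points is not independent of them.

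No member was called in any of the 3 comparisons of cohort 1 at an unadjusted p below 0.01 with edgeR, where 0.048%, 0.036% and 0.078% of 33350 genes passed for O-NR against O-WT, O-NR-RC against O-NR and O-NR-RC against O-WT, nor at an unadjusted p below 0.05, nor with DESeq2 at either limit. After adjustment edgeR called 0 of all genes in each, with 182 (0.546%), 97 (0.291%) and 265 (0.795%) at an unadjusted p below 0.05, and DESeq2 called 0, 2 and 0. *Dbt* was the 1 member whose O-WT and O-NR libraries did not overlap, which was so for 5.71% of all genes; all members overlapped in the comparisons with O-NR-RC, where 1.2% of genes did not against O-NR and 7.95% did not against O-WT. It gave 15 and 18 CPM in O-WT, 20.5, 18.8, 20.2 and 21.5 CPM in O-NR and 21.6, 15.4 and 19.7 CPM in O-NR-RC libraries. The log2 fold change of O-NR against O-WT was 0.29 ± 0.23 (SE, edgeR, unadjusted p = 0.228), and O-NR-RC against O-NR was at −0.10 ± 0.20 (edgeR, unadjusted p = 0.646). *Mccc2* gave 21 and 19.2 CPM in O-WT, 21.3, 18.9, 23.4 and 29.7 CPM in O-NR and 24.8, 17.5 and 17 CPM in O-NR-RC libraries. Its groups overlapped, at 0.21 ± 0.27 for O-NR against O-WT (edgeR, unadjusted p = 0.436) and −0.24 ± 0.24 for O-NR-RC against O-NR (edgeR, unadjusted p = 0.331). Over the 10 members, 4 were positive for O-NR against O-WT and 1, *Bckdha*, for O-NR-RC against O-NR, where the median was −0.14 beside 0.02 over all genes.

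The *Bckdhb* to *Bckdha* ratio of counts was between 1.13 and 1.74 in the 9 HSC libraries of cohort 1 and 0.487 to 0.797 in the 8 HSC libraries of cohort 2. The ranges of the cohorts did not overlap. *B3gnt8* counts were 1.36 to 1.87 times those of *Bckdha* in cohort 1 and 0.461 to 0.978 times in cohort 2. The cohorts shared no library and were not compared by a test.

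The other 42 genes of these routes, in 4 lists, were read beside the members. In HSCs against CLPs 18 were higher and 3 lower, in HSCs against GMPs 10 higher and 20 lower, and in CLPs against GMPs 4 higher and 27 lower (edgeR, adjusted p below 0.05). Among all genes the shares higher and lower were 23.9% and 20.2%, 27.1% and 21%, and 43.1% and 26.8% in the same order. Among the 15 further genes of branched-chain amino acid oxidation, *Bcat1*, the cytosolic counterpart of *Bcat2*, averaged 19.3 ± 6.71 CPM in CLPs against 7.4 ± 1.53 in HSCs and 7.99 ± 0.569 in GMPs (SD, n = 8). Within cohort 2 it was highest in CLPs, where *Bcat2* was lowest, while HSCs of cohort 1 averaged 34.1 to 38.6 CPM in their 3 groups, and it had a log2 fold change of −1.37 ± 0.18 (SE) in HSCs against CLPs (adjusted p = 1.66e-09) and 1.26 ± 0.17 in CLPs against GMPs (adjusted p = 1.78e-08). *Hsd17b10*, a dehydrogenase of isoleucine breakdown, averaged 43.9 ± 11.3 CPM in HSCs, 22.9 ± 2.51 in GMPs and 13.6 ± 4.09 in CLPs, and was higher in HSCs than in CLPs by 1.69 ± 0.16 (adjusted p = 2.41e-13). *Dld*, the E3 component that the dehydrogenase complex shares with others, averaged 104 ± 10 CPM in GMPs against 47.5 ± 10.3 in HSCs and 45.1 ± 10.4 in CLPs, and *Echs1* and *Acat1* were also lower in CLPs than in GMPs, by −1.26 ± 0.14 and −1.22 ± 0.14 (SE) on the log2 scale.

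Among the 15 further genes of propionate and cobalamin handling, *Tcn2*, which carries cobalamin in plasma, averaged 48.2 ± 5.12 CPM in GMPs, 15.3 ± 2.8 in HSCs and 12.1 ± 4.14 in CLPs (SD, n = 8). *Suclg1*, a subunit of the succinyl-CoA ligase after the end of the route, averaged 112 ± 11.7 CPM in GMPs and 47.2 ± 12.2 in HSCs. Others ran the other way. *Mmaa*, needed to load cobalamin onto methylmalonyl-CoA mutase, averaged 18.5 ± 3.13 CPM in HSCs, 8.44 ± 0.781 in GMPs and 10.1 ± 0.971 in CLPs and was higher in HSCs than in GMPs by 1.13 ± 0.15 (SE, edgeR, adjusted p = 2.27e-09). *Lmbrd1*, which exports cobalamin from lysosomes, and *Echdc1* were higher in HSCs than in CLPs of cohort 2 by 1.08 ± 0.15 and 1.24 ± 0.16 (edgeR, adjusted p = 7.51e-09 and 2.73e-09). For *Echdc1*, HSCs of cohort 2 averaged 33.6 CPM, while the HSC groups of cohort 1 averaged 10.8 to 12.2 CPM. *Acss3* was higher than in GMPs by 1.65 ± 0.24 in HSCs and 1.42 ± 0.24 in CLPs.

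Of the 9 genes for biotin, lipoate and electron acceptance, *Etfb*, a subunit of the electron transfer flavoprotein that takes electrons from *Ivd*, averaged 14.3 ± 1.76 CPM in GMPs, 4.22 ± 1.29 in HSCs and 3.25 ± 1.22 in CLPs (SD, n = 8), with log2 fold changes of −1.76 ± 0.20 in HSCs against GMPs (edgeR, adjusted p = 2.93e-11) and −2.14 ± 0.21 in CLPs against GMPs (adjusted p = 4.28e-13). Its partner *Etfa* was lower in HSCs than in GMPs by −1.17 ± 0.14 (adjusted p = 2.45e-10). Of the 3 further biotin carboxylases, *Acacb* averaged 24.9 ± 6.25 CPM in HSCs, 8.93 ± 1.42 in GMPs and 12 ± 3.22 in CLPs. It was higher in HSCs by 1.05 ± 0.16 against CLPs (adjusted p = 2.31e-07) and by 1.47 ± 0.16 against GMPs (adjusted p = 2.27e-11).

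Under NR, 2 of these 42 genes passed an unadjusted p below 0.01 in HSCs of cohort 2 with edgeR, both higher, where 0.777% of 17364 genes passed. This is a description of the contrast that picked *Pccb*, and nothing is read from the count. *Acadsb*, the dehydrogenase of the isoleucine branch, gave 24.8, 25, 21.1 and 30.6 CPM in O-WT and 41.9, 28.6, 46.1 and 37.3 CPM in O-NR libraries (log2 fold change 0.50 ± 0.13), and *Echs1*, the short-chain enoyl-CoA hydratase, was at 0.39 ± 0.12. Both overlapped between groups. In CLPs 1 of 42 passed, *Btd*, which frees biotin for reuse, at 5.15, 4.94, 4.49 and 5.55 CPM in O-WT and 6.24, 12.6, 14.3 and 8.18 CPM in O-NR libraries. Its groups did not overlap, as for 2.54% of all genes, and 0.412% of all genes passed the same limit of p. The log2 fold change was 0.95 ± 0.33 (SE, edgeR, unadjusted p = 0.00704, adjusted p = 1). Neutrophil markers summed to 32.1 to 127 CPM in O-WT and to 7.32 to 93.3 CPM in O-NR CLP libraries, and their part in the CLP differences was not tested. In GMPs and in the 3 comparisons of cohort 1 none of the 42 passed (41 were tested in GMPs).

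Across the 24 libraries of cohort 2, genes whose log2 CPM followed *Pccb* most closely among 22572 included *Cpne3* (Pearson r = 0.949), *Ehd4* (0.947), *Spn* and *Nomo1* (0.937 each). Of the members, *Bckdha* (0.845), *Mccc1* (0.804) and *Pcca* (0.789) were nearest to *Pccb* and *Mccc2* (0.418) was farthest. These libraries differ in cell type, depth and scaling, so the values describe the pattern only. After group means were removed, 43 of the 45 pairs of members had a positive r, with a median of 0.43, from −0.06 for *Mccc1* with *Mcee* to 0.80 for *Bckdha* with *Ivd* and for *Pcca* with *Mcee*. The log2 CPM of *Pccb* and *Pcca* had an r of 0.57 in this way, those of *Bckdha* and *Bckdhb* 0.64, and those of *Mccc1* and *Mccc2* 0.08. The share of positive pairs among all genes was not computed. TMM factors differed within groups, from 0.843 to 1.39 in O-WT HSCs of cohort 2, and the CPM were divided by them. Nothing about the members is therefore read from the 43 of 45 pairs.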

How the data were processed

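RNA was measured in 33 libraries of sorted HSCs, CLPs and GMPs made with a SMARTer total RNA kit. The authors trimmed reads with cutadapt through Trim Galore, aligned them to mm10 with STAR and deposited raw counts per gene, made with featureCounts on Gencode annotation; strand and multi-mapping settings were not given in the sources used here. The labels did not say whether each library was a separate mouse. The 10 members and the 4 lists of other route genes were chosen with earlier results of these data known.

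From the counts, edgeR 4.0.16 (R 4.3.3, limma 3.58.1) fitted its quasi-likelihood test on all genes above 3 CPM in no fewer libraries than the smaller group had (4 for fits of 24 libraries), with TMM scaling. NR and withdrawal comparisons were called at an unadjusted p below 0.01 and cell types at a Benjamini-Hochberg adjusted p below 0.05. No p is given for members in HSCs of cohort 2. Subunit ratios were log2 ratios of counts with 0.5 added to each, compared by exact two-sided permutation tests (SciPy 1.17.1, Python 3.11.15) and adjusted over 9 comparisons. Scripts were tested on simulated data.

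Alternatives were RLE scaling, DESeq2 1.42.0, a filter above 1 CPM or none, a fold change above 1.5 added to the call, a replicate block, 1 model for 24 libraries, O-WT or O-NR libraries alone, 2 added to counts, and leaving out each library. Named beyond the members were other route genes with an adjusted p below 0.05 and an absolute log2 fold change above 1 between cell types, at most 4 per list and comparison, those with an unadjusted p below 0.01 in NR comparisons, and the 5 genes nearest to *Pccb* by Pearson correlation of log2 CPM with a prior count of 2, of which 1 is not reported here. Depth ran from 4792380 to 23816042 counted reads. The lowest count of a member in any library was 20, for *Mcee* in an O-NR CLP library.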

Additional observations from a re-analysis of the deposited data

Results flagged for a closer look

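In 3 of the 70 combinations of a member and a group of 4 libraries, 1 library lay far from the other 3 by Dixon's test, which chance gives in about 1 in 20 groups. *Mcee* stood at 4.19 CPM in replicate 2 of O-WT HSCs of cohort 2, where the others lay between 8.7 and 8.83 CPM. *Mcee* stood at 2.15 CPM in replicate 4 of O-NR CLPs, where the others lay between 9.08 and 10.3 CPM. *Bckdha* stood at 24 CPM in replicate 2 of O-NR CLPs, where the others lay between 18 and 18.5 CPM. The causes were not tested.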

How the results depend on the processing

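Over the processing alternatives of the members' values, 409 of 452 stayed as they were, 13 lost a call, 9 gained one and 21 changed sign, and over single left-out libraries these were 957, 10, 35 and 63 of 1065. A tested value stayed when it kept its direction and side of the threshold, and a value of HSCs of cohort 2 under NR, which had no test, when it moved by less than the spread between replicates; among the latter *Dbt* ranged over −0.124 to 0.0757 and *Mcee* over −0.289 to 0.0466 with a library left out, and *Mcee* was at 0.00613 in 1 model for 24 libraries. Of the counts of members called, 69 of 73 stayed within 1.5 times, and all 147 with a library left out did (4 to 6 in HSCs against CLPs, 6 to 7 in HSCs against GMPs, 8 to 10 in CLPs against GMPs and 0 in the NR comparisons that did not pick *Pccb*). The cause of a changed value was not tested unless the alternative had fewer libraries. *Mcee* had the lowest counts of the members (from 20 in a library), and cohort 1 had only 2 O-WT libraries.

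With a fold change above 1.5 added to the call, 0 members were called under NR in HSCs of cohort 2, as a description, and 2 in HSCs against CLPs. In HSCs against CLPs, O-WT libraries alone and O-NR libraries alone also gave 2 each, beside 5877 and 6821 of all 22573 genes. Signs changed under NR in CLPs for *Pcca*, at 0.0268 with RLE scaling, 0.0271 with DESeq2, 0.0252 with a filter above 1 CPM, 0.0416 with no filter and 0.0708 in 1 model for 24 libraries, where *Mcee* was at 0.00563. For O-NR-RC against O-WT, *Mccc2* was at 0.00555 with RLE scaling and 0.00612 with DESeq2. In HSCs against CLPs, *Mcee* was at 0.144 with a filter above 1 CPM and 0.036 with none, and the share of higher calls among all genes moved from 54.1% to 70.9% with the filter above 1 CPM. In HSCs against GMPs, *Bckdhb* was at −0.185 with RLE scaling, −0.185 with DESeq2, −0.156 with no filter and −0.156 in O-WT libraries alone, and *Mccc2* was at 0.0115 in O-NR libraries alone. In the split of cohort 1 by TMM factor, chosen after seeing the data, *Pccb* was at 0.189 for O-NR against O-WT and at 0.169 for O-NR-RC against O-WT with factors below 1 and at 0.0723 for O-NR-RC against O-NR with factors above 1, and *Mccc2* was at 0.164 for O-NR-RC against O-WT with factors below 1.

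In ratios, O-WT libraries alone gave log2 differences for *Pccb* to *Pcca* of 0.535 (HSCs against CLPs), 0.0699 (HSCs against GMPs) and −0.465 (CLPs against GMPs), for *Mccc2* to *Mccc1* of −0.748 and −0.256 (HSCs against CLPs and GMPs), and for *Bckdhb* to *Bckdha* of 0.615 and 0.823 (HSCs and CLPs against GMPs). O-NR libraries alone gave 0.682, 0.389 and −0.293 for *Pccb* to *Pcca*, −0.606 and −0.31 for *Mccc2* to *Mccc1*, 0.801 and 0.799 for *Bckdhb* to *Bckdha* against GMPs and 0.00209 in HSCs against CLPs. These have 4 against 4 libraries, where the smallest exact p is 0.0286 before adjustment, so calls lost there say nothing on stability. With a library left out, *Pccb* to *Pcca* ranged over 0.187 to 0.274 in HSCs against GMPs and −0.488 to −0.317 in CLPs against GMPs, and *Mccc2* to *Mccc1* over −0.335 to −0.228 in HSCs against GMPs and 0.298 to 0.506 in CLPs against GMPs, called without CLP O-NR replicate 4 (0.506).

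Left-out libraries turned signs for values near 0. Under NR these ranged over −0.0434 to 0.175 for *Bckdha*, −0.12 to 0.332 for *Bckdhb*, −0.109 to 0.174 for *Pcca* and −0.223 to 0.263 for *Mcee* in CLPs, and over −0.13 to 0.0397 for *Dbt*, −0.0821 to 0.0146 for *Mccc1* and −0.0292 to 0.124 for *Mcee* in GMPs. In cohort 1 *Pccb* ranged over −0.189 to 0.0806 for O-NR against O-WT, −0.287 to 0.111 for O-NR-RC against O-NR and −0.322 to 0.0265 for O-NR-RC against O-WT, *Dbt* over −0.204 to 0.027 for O-NR-RC against O-NR and *Mccc2* over −0.222 to 0.0728 for O-NR-RC against O-WT. Between cell types *Mcee* ranged over −0.126 to 0.166 in HSCs against CLPs and *Bckdhb* over −0.135 to 0.0533 in HSCs against GMPs, and the interaction for *Pccb* over −0.0037 to 0.269.

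Genes called among all genes under NR numbered 135 in HSCs of cohort 2 against 283 with no filter, 33 with the fold change and 66 to 244 with a library left out. In CLPs 82 became 136 with a filter above 1 CPM, 336 with none and 268 in 1 model, in GMPs 133 became 366 with no filter, 14 with the fold change and 25 in 1 model, and in the interaction 91 became 142 with DESeq2, 205 and 468 with the filters. In cohort 1, 16 became 34 with RLE, 64 with DESeq2, 56 and 80 with the filters for O-NR against O-WT, 12 became 26 with DESeq2, 36 and 56 for O-NR-RC against O-NR, and 26 became 71, 106, 79 and 100 for O-NR-RC against O-WT. The split gave 491, 988, 2709 and 633. O-WT libraries alone gave 5877 in HSCs against CLPs in place of 9958, and O-NR libraries alone 8379 in CLPs against GMPs in place of 15788.

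Replicate numbers were not used to pair libraries in the main fits, because no comparison with 3 or more pairs had every correlation of deviations of same-numbered libraries above 0.1. With so few pairs this cannot show whether same-numbered libraries came from the same mice. The tests between cell types treated libraries as independent. Between O-WT and O-NR they ran from −0.353 to 0.651 in HSCs of cohort 2 (2 of 4 above 0.1), −0.199 to 0.342 in CLPs (1 of 4) and −0.0549 to 0.322 in GMPs (1 of 4), and in cohort 1 from −0.823 to 0.772 (4 of 7). Between cell types they ran from −0.371 to 0.367 for HSCs with CLPs (4 of 8, the 4 O-WT pairs), −0.476 to 0.0752 for HSCs with GMPs (0 of 8) and −0.451 to 0.166 for CLPs with GMPs (2 of 8). With the replicate block 247 genes were called under NR in HSCs of cohort 2, 185 in CLPs and 125 in GMPs, *Pccb* for O-NR-RC against O-NR was at 0.105, *Mcee* in HSCs against CLPs at 0.0487, and the *Pccb* to *Pcca* difference between HSCs and GMPs, 0.229, had an adjusted p = 0.0502 by an exact sign-flip test. In the block the *Ivd* call in HSCs against CLPs was lost (−0.334).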
